A study of Mus musculus with 6 samples.

Results

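The proteasome genes were followed here as a family, chosen by name: protein-coding genes whose mouse symbol begins with Psma, Psmb, Psmc, Psmd, Psme, Psmf or Psmg and a digit. The rule found 50 of the 48432 genes in the table, and 49 of them reached 1 unit of TPM (transcripts per 1e+06 transcripts) in at least 2 of the 6 samples and were tested. The exception was Psmb11, the catalytic subunit of the thymus proteasome, which was listed at 0 in each sample. A pair of members are not subunits in the ordinary sense: Psmc3ip encodes a factor of meiotic recombination whose symbol recalls a binding partner, and Psme2b is a Psme2-like gene copy, so reads may be shared between Psme2b and Psme2.

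The samples were polyA RNA from hepatocytes of FVB mice, 2 for each of 3 groups. In the first, adult mice were fed for 4 weeks with DDC, a compound that blocks heme synthesis and injures the liver. In the second, livers of about 8 embryos of embryonic day 18 (E18) were pooled for each preparation. In the third, adult mice were fed normal chow. No transgene, deletion or other agent was named in the labels for any group. Nothing in the labels places the 2 samples of each group in different animals, and the p-values therefore cover only the scatter of these libraries, which may be technical. The 2 samples are called replicates 0 and 1, as numbered in the table.

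The proteasome degrades proteins tagged with ubiquitin. Its 20S core is a barrel of outer alpha rings and inner beta rings, and 3 of the constitutive beta subunits (Psmb5, Psmb6 and Psmb7) carry the proteolytic sites. The 19S cap, with ATPases (Psmc) and non-ATPase subunits (Psmd), recognises, unfolds and feeds in tagged substrates. Interferon induces replacement catalytic subunits (Psmb8, Psmb9 and Psmb10) and the PA28 activator (Psme1 and Psme2), which together form the immunoproteasome and favour peptides suited to presentation on class I molecules. In liver, DDC feeding is a standard model of Mallory-Denk bodies, aggregates of keratin, ubiquitin and the adaptor protein encoded by Sqstm1.

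Marker genes were compared with the labels. The hepatocyte list (10 genes) summed to 15534 and 14295 TPM in DDC fed samples, to 6170 and 3871 TPM in E18 samples and to 26064 and 18512 TPM in normal fed samples. Of the 9 genes of this list that were tested, 1 was higher and 1 lower in DDC fed than in normal fed hepatocytes (34.2% and 3.07% of all genes tested). In E18 against normal fed hepatocytes 1 was higher and 7 lower (63.0% and 12.7% of all genes tested). Cyp2e1, a cytochrome gene, made up much of the difference between the adult sums, with 727 and 903 TPM in DDC fed samples and 8193 and 4389 TPM in normal fed samples. Fgb was listed at 0 in E18 samples and Serpina1a in normal fed samples. Serpina1a was the 1 higher gene in both comparisons and Fgb was among the 7 lower in E18, so these calls rest on listed zeros. Alb, the albumin gene, was listed at 0 in all 6 samples, which for hepatocytes shows that a listed 0 in this table can be a failed estimate. Leukocyte markers (10 genes) summed to 180 and 177 TPM in DDC fed samples, to 2077 and 2527 TPM in E18 samples and to 66.1 and 32.0 TPM in normal fed samples. The erythroid list (8 genes) reached 11797 and 22162 TPM in E18 samples, above the hepatocyte sums there. It summed to 37.8 and 37.6 TPM in DDC fed samples and to 39.9 and 28.1 TPM in normal fed samples. In bulk samples of this kind, fewer cells of a type and less RNA per cell cannot be told apart. Read depth was not recoverable from TPM, so no counting interval is given.

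Few of the proteasome genes passed the test between any groups, and those that did were inducible, cap, activator, PI31 and assembly genes, besides Psma8 and Psme2b. After DDC feeding 7 of the 49 tested genes were higher than in normal fed hepatocytes (14.3%, against 34.2% of all 14307 genes tested) and 0 were lower (against 3.07%), by limma on log2(TPM + 1) with Benjamini-Hochberg adjustment over all genes tested and a threshold of 0.05. In E18 hepatocytes 8 were higher than in normal fed hepatocytes (16.3%, against 63.0%) and 1 was lower (2.04%, against 12.7%). Between DDC fed and E18 hepatocytes 4 were higher (8.16%, against 17.7%) and 4 were lower (8.16%, against 47.0%). On TPM as deposited the shares called in the family were thus below those of the whole table in each comparison and direction. The median log2 fold change of the members was 0.22 for DDC fed against normal fed, where that of all genes tested was 0.45. It was 0.22 for E18 against normal fed, where all genes had 1.06, and 0.08 for DDC fed against E18, where all genes had -0.55.

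These shifts of the whole table bear on each direction below. The samples were also scaled by the median ratio of the tested genes that were above 0 in all 6 samples. This moved the all-gene median by -0.46, -0.97 and 0.45 in the same 3 comparisons. With that scaling 0 members were higher and 2 lower in DDC fed against normal fed hepatocytes, and 0 were higher and 35 lower in E18 against normal fed hepatocytes. Of all genes tested, 20.3% were higher and 11.9% lower in DDC fed against normal fed with this scaling, and 38.1% were higher and 31.6% lower in E18 against normal fed. The share of members lower in E18 was then above that of the whole table, unlike on TPM as deposited. TPM is a share of each library, so every fold change here is a change in a gene's share of the measured transcripts.

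Leaving out samples bore on the counts themselves. None of the 7 genes higher in DDC fed against normal fed hepatocytes passed without DDC fed replicate 0 (adjusted p from 0.052 to 0.19) or without replicate 1 (0.072 to 0.21), though each kept its direction. Of the 9 genes called in E18 against normal fed, 6 passed without E18 replicate 0 and 4 without replicate 1. Of the 8 called in DDC fed against E18, 3 remained without DDC fed replicate 1 and 3 without E18 replicate 1, including Psmd8 both times. With median-ratio scaling the 7 log2 fold changes in DDC fed against normal fed lay between 0.07 and 0.47 and none was called, and with quantile normalization Psmd8 alone of the 7 was called.

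**Figure D1:**
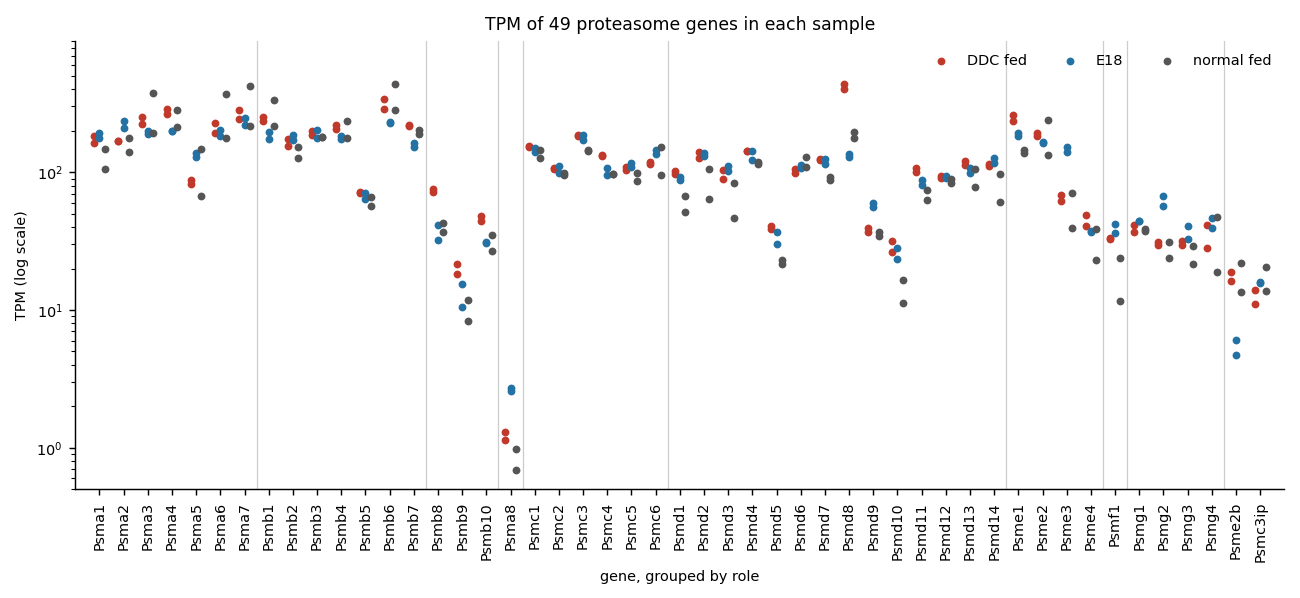
TPM of the 49 tested proteasome genes on a log scale, with 2 points per group (DDC fed in red, E18 in blue, normal fed in grey) and vertical lines between roles. Standard ring subunits lie between about 56.6 and 436 TPM in all samples. Psmb9 and Psmb10 lie lower in all samples, and Psma8 lies between 0.686 and 2.72 TPM. Psmb8 lies lower in E18 and normal fed samples but within the low end of the ring range in DDC fed samples (71.3 and 75.6 TPM).

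The standard 20S rings (7 alpha and 7 constitutive beta subunits) gave no call. None of the 14 genes passed the threshold in any of the 3 comparisons by limma, where the unadjusted p was under 0.05 for 0 genes in DDC fed against normal fed, 1 in E18 against normal fed (Psma1) and 1 in DDC fed against E18 (Psmb7). Their median log2 fold changes were 0.07, -0.25 and 0.14 in these comparisons. Ring genes were called under some alternatives: with median-ratio scaling Psma3, Psma4, Psma6, Psma7 and all 7 constitutive beta genes were lower in E18 than in normal fed hepatocytes, where 31.6% of all genes tested were lower. With the exon-length correction Psma1, Psma5, Psmb2 and Psmb5 were higher in E18, where 63.9% of all genes tested were higher. With only the 2 groups compared, Psma4, Psmb1, Psmb6 and Psmb7 were higher and Psma2 and Psma5 lower in DDC fed against E18. Of all genes tested, 23% were higher and 55.2% lower there. These are examples, and other alternatives called ring genes too. The median TPM of the 14 was 198 and 221 in DDC fed samples, 178 and 197 in E18 samples and 179 and 220 in normal fed samples, so the normal fed samples spanned nearly the whole range of the other 4.

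Levels differed more among ring genes than among groups. Psmb6, which carries the caspase-like site, had the highest mean of the constitutive beta genes in each group, with 313 TPM in DDC fed, 228 TPM in E18 and 359 TPM in normal fed samples. Psmb5, which carries the chymotrypsin-like site, had the lowest mean, with 71.5 TPM in DDC fed, 67.7 TPM in E18 and 61.4 TPM in normal fed samples. In the alpha ring Psma5 was lowest in each group, with means of 84.6, 134 and 108 TPM in DDC fed, E18 and normal fed samples. The assembled rings hold these subunits in equal number. Psma1 had 164 and 182 TPM in DDC fed samples, 178 and 192 TPM in E18 samples and 106 and 148 TPM in normal fed samples. Its log2 fold change was 0.46 ± 0.23 (SE) in DDC fed and 0.56 ± 0.23 in E18 against normal fed, with adjusted p = 0.16 and 0.064 by limma.

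The 2 normal fed samples stood apart from each other in this family. The median absolute log2 difference between replicates over the 49 members was 0.098 in DDC fed and 0.11 in E18 hepatocytes, against 0.38 in normal fed hepatocytes (0.37 over all genes tested). All 14 standard ring genes were higher in normal fed replicate 1 than in replicate 0, by a median of 0.44 and up to 1.1185 for Psma5. The direction was not particular to this group. The alpha ring genes summed to 1337 and 1490 TPM in DDC fed replicates 0 and 1, 1311 and 1416 TPM in E18 and 1114.5 and 1930 TPM in normal fed. Of the 49 members, 35 in DDC fed, 42 in E18 and 32 in normal fed hepatocytes were higher in replicate 1, with no such count made over all genes tested. All 3 inducible catalytic genes were lower in normal fed replicate 1, by 0.20 for Psmb8, 0.47 for Psmb9 and 0.37 for Psmb10. The 20 genes of the 19S cap and its assembly were divided, with 10 higher and 10 lower. Across the 49 members the normal fed difference had a Spearman rho of -0.40 with total exon length. The same rho was -0.454 between the DDC fed replicates and 0.148 between the E18 replicates. A relation with length was thus not particular to the normal fed pair. These are descriptions only, since the points share both libraries. In normal fed hepatocytes Psma5 had 148 TPM in replicate 1 and 67.7 TPM in replicate 0, and Psma6 had 373 and 177 TPM. The fit used 1 variance per gene over all 3 groups. The SE and p-values of DDC fed against E18 thus also carry the normal fed scatter. With only the DDC fed and E18 samples fitted, 12 members were higher and 6 lower (23% and 55.2% of all genes tested). Every comparison with normal fed hepatocytes rests on the 2 normal fed libraries. Without replicate 0 the count in DDC fed against normal fed was 16 higher and 7 lower (55.7% and 6.90% of all genes tested), and without replicate 1 it was 12 higher and 0 lower (32.9% and 4.81%). In E18 against normal fed the counts were 14 higher and 10 lower without replicate 0 (69.0% and 13.8% of all genes), and 19 higher and 2 lower without replicate 1 (63.6% and 16.2%).

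**Figure D2:**
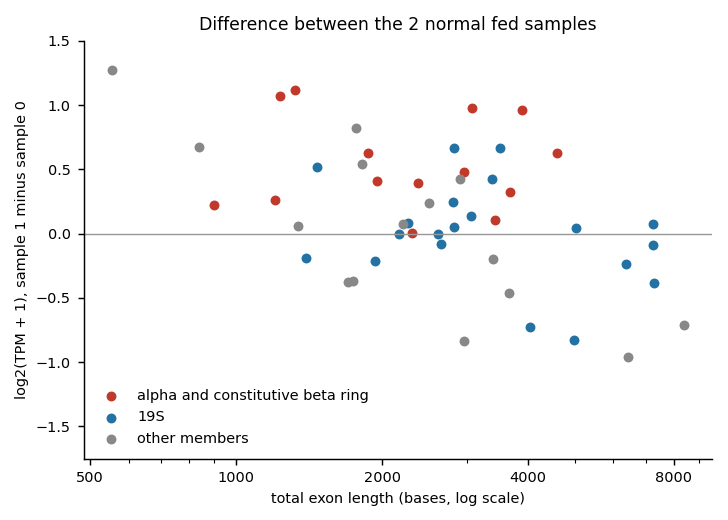
Difference between the 2 normal fed samples, log2(TPM + 1) of replicate 1 minus replicate 0, for the 49 tested genes against total exon length on a log scale. The 14 standard ring genes (red) all lie above 0, while the 19S genes (blue) lie on both sides.

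Among the beta genes, the calls fell on Psmb8, Psmb9 and Psmb10, the interferon-inducible catalytic subunits. Psmb8, which replaces Psmb5, had 71.3 and 75.6 TPM in DDC fed samples, 32.2 and 41.4 TPM in E18 samples and 42.6 and 37.0 TPM in normal fed samples. Both DDC fed samples lay above the other 4, and the E18 and normal fed samples overlapped. Psmb8 was higher in DDC fed than in normal fed hepatocytes by 0.87 ± 0.21 (log2 fold change ± SE, adjusted p = 0.018) and higher than in E18 by 0.99 ± 0.21 (adjusted p = 0.0055, limma). E18 and normal fed hepatocytes differed by -0.12 ± 0.21. The difference from E18 missed the threshold without DDC fed replicate 1 (adjusted p = 0.056).

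Psmb9, which replaces Psmb6, was the least abundant of the 3. It had 18.2 and 21.7 TPM in DDC fed samples, 10.5 and 15.6 TPM in E18 samples and 11.8 and 8.27 TPM in normal fed samples. The DDC fed samples were again the highest, and those of the other groups overlapped. It was higher in DDC fed than in normal fed hepatocytes by 0.94 ± 0.27 (adjusted p = 0.035, limma) and did not pass against E18 (0.59 ± 0.27, adjusted p = 0.094). Fitted without the normal fed samples, Psmb9 was called higher in DDC fed than in E18, as were 23% of all genes tested. Psmb10, which replaces Psmb7, had 44.6 and 48.1 TPM in DDC fed samples, 30.7 and 31.0 TPM in E18 samples and 34.8 and 26.6 TPM in normal fed samples. Both DDC fed samples were above the rest, with a difference of 0.59 ± 0.20 from normal fed that missed the threshold (adjusted p = 0.062) and one of 0.57 ± 0.20 from E18 that passed it (adjusted p = 0.044, limma). Psmb8 and Psmb9 kept a positive log2 fold change against normal fed under each scaling tried, but with median-ratio scaling it was 0.20 for Psmb8 and 0.30 for Psmb9, with adjusted p = 0.45 and 0.31. Psmb9 also lost its call without normal fed replicate 1 (adjusted p = 0.083) and without E18 replicate 0 or 1 (0.073 and 0.074). The Psmb10 difference from E18 missed the threshold without DDC fed replicate 0 or 1 (adjusted p = 0.16 and 0.23), without E18 replicate 0 or 1 (both 0.14) and with the exon-length correction (log2 fold change 0.30, adjusted p = 0.30).

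As a share of the subunit it replaces, Psmb8 transcripts stood at 101% and 105% of Psmb5 in DDC fed samples, at 50.02% and 58.22% in E18 samples and at 75.4% and 55.8% in normal fed samples. Psmb10 stood at 20.5% and 21.9% of Psmb7 in DDC fed samples, at 20.15% and 19.02% in E18 samples and at 18.3% and 13.1% in normal fed samples. Psmb9 stood at 6.35% and 6.40% of Psmb6 in DDC fed samples, at 4.64% and 6.77% in E18 samples and at 4.19% and 1.90% in normal fed samples. The DDC fed samples had the highest ratio for Psmb8 and Psmb10, whereas for Psmb9 one E18 sample was higher. An exact permutation test of 2 against 2 samples cannot give a two-sided p below 0.333, so these ratios are descriptions. A ratio of transcripts says nothing of how much of each protein is built into the core.

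**Figure D3:**
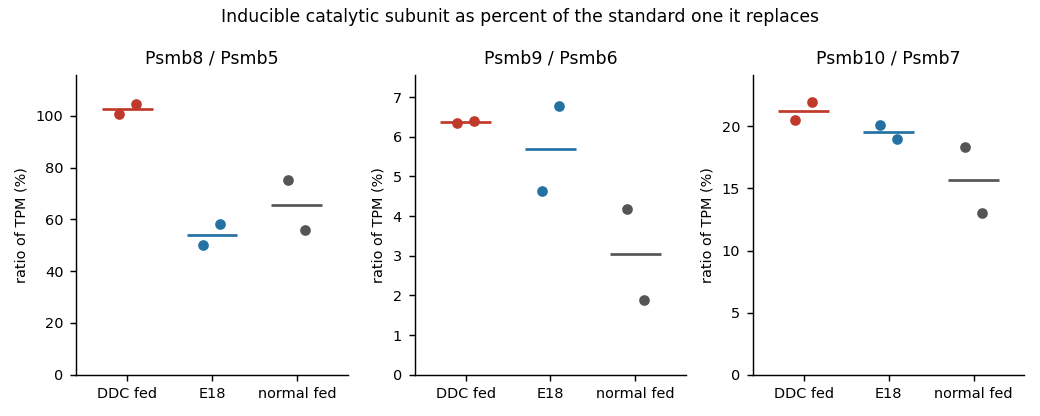
Inducible catalytic gene as a percent of the TPM of the constitutive gene it replaces, for each sample (points) with the group mean (line), DDC fed, E18 and normal fed from left to right. Psmb8 stood above 100% of Psmb5 in both DDC fed samples (101% and 105%) and below it in the other 4.

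Markers of several other cell types were also higher in DDC fed than in normal fed hepatocytes, where 34.2% of all genes tested were higher and 3.07% lower. All 10 leukocyte and all 10 macrophage markers were higher after DDC feeding (limma adjusted p under 0.05), with none at 0 in any group. The macrophage sum was 1003 and 1247 TPM in DDC fed samples, 3748 and 4763 TPM in E18 samples and 120 and 106 TPM in normal fed samples. Of 8 endothelial markers 7 were higher and 0 lower after DDC feeding, with sums of 183 and 192 TPM in DDC fed samples, 382 and 393 TPM in E18 samples and 51.8 and 20.3 TPM in normal fed samples. Of 8 stellate cell markers 7 were higher and 0 lower, with sums of 331 and 296 TPM in DDC fed samples, 316 and 291 TPM in E18 samples and 24.3 and 11.04 TPM in normal fed samples, where Acta2 was listed at 0. Of 5 cholangiocyte markers tested 2 were higher and 0 lower, which is near the share of all genes tested. The sums over 6 were 70.6 and 89.1 TPM in DDC fed samples, 139 and 89.6 TPM in E18 samples and 3.86 and 3.40 TPM in normal fed samples, where Cftr was listed at 0. The E18 samples had the largest sums of the leukocyte and macrophage lists, while their Psmb8 and Psmb10 values overlapped those of normal fed samples. In E18 against normal fed all 10 leukocyte, 10 macrophage, 8 endothelial, 8 stellate and 8 erythroid markers were higher, where 63.0% of all genes tested were. Of the 5 cholangiocyte markers tested 4 were higher there. The part of these cells in the DDC fed and E18 differences of the proteasome genes was not tested.

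**Figure D4:**
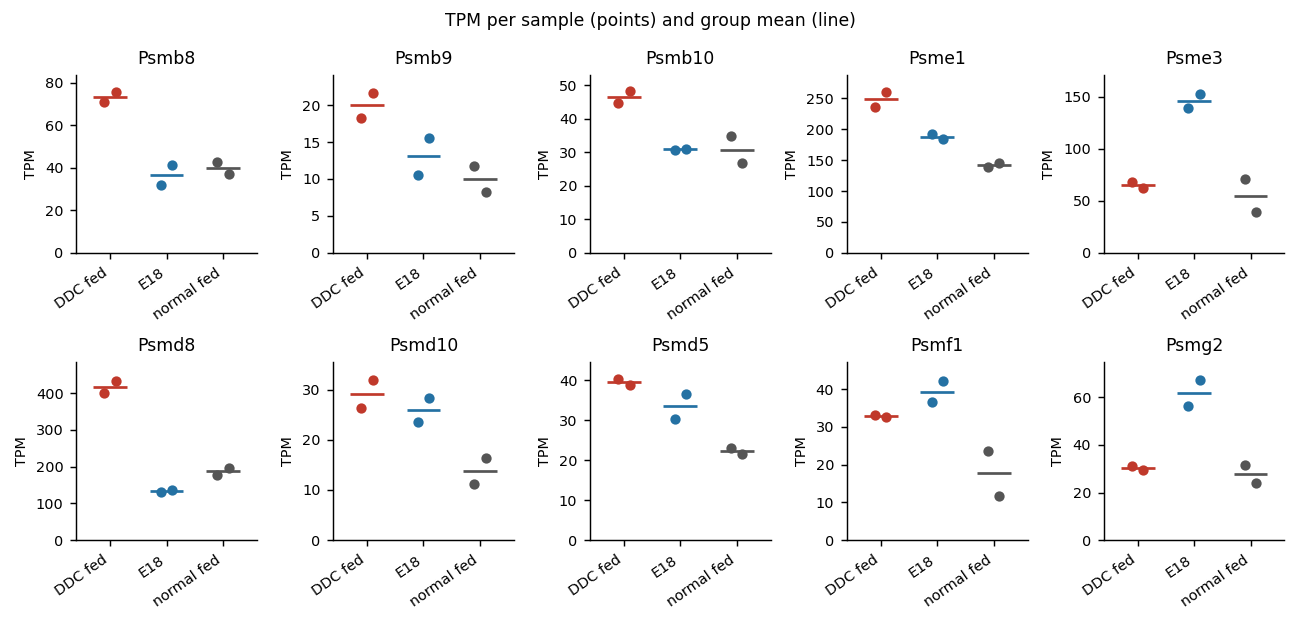
TPM of 10 proteasome genes in each sample (points) with the group mean (line), DDC fed, E18 and normal fed from left to right and each axis from 0. Psmb8, Psmb9, Psmb10, Psme1, Psmd8 and Psmd5 are highest in both DDC fed samples, and Psme3, Psmf1 and Psmg2 in both E18 samples. For Psmd10 the DDC fed and E18 samples overlap.

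The activators did not share one order of the groups. Psme1, the PA28 alpha subunit, had 237 and 261 TPM in DDC fed samples, 192 and 184 TPM in E18 samples and 139 and 146 TPM in normal fed samples. The 3 groups did not overlap, and Psme1 was higher in DDC fed than in normal fed hepatocytes by 0.80 ± 0.19 (adjusted p = 0.019, limma). Psme1 did not pass in E18 against normal fed (0.40 ± 0.19, adjusted p = 0.099) or in DDC fed against E18 (0.40 ± 0.19, adjusted p = 0.11, limma). Its difference between DDC fed and normal fed lay between 0.12 and 0.87 over 19 alternatives. That difference was not called with median-ratio scaling or quantile normalization. Its partner in the PA28 ring, Psme2, had 183 and 193 TPM in DDC fed samples, 165 and 162 TPM in E18 samples and 134 and 239 TPM in normal fed samples, with the normal fed pair spanning both other groups. Psme2 did not pass in any comparison, its largest difference being 0.20 ± 0.29 in DDC fed against E18. The genes lie 5911 bases apart on chromosome 14 of GRCm38, on opposite strands.

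Psme3 forms a separate nuclear activator, PA28 gamma, and was highest in the E18 samples. It had 68.4 and 62.2 TPM in DDC fed samples, 139 and 153 TPM in E18 samples and 70.8 and 39.3 TPM in normal fed samples. Both E18 samples lay above the other 4, which overlapped. It was lower in DDC fed than in E18 hepatocytes by -1.15 ± 0.29 (adjusted p = 0.012) and higher in E18 than in normal fed hepatocytes by 1.45 ± 0.29 (adjusted p = 0.0035, limma). The E18 difference kept its direction under each scaling, at 0.27 with the median ratio (adjusted p = 0.27) and 1.17 with quantile normalization (adjusted p = 0.0028). The call against E18 was lost without DDC fed replicate 0 or 1 (adjusted p = 0.057 and 0.078) and without E18 replicate 0 or 1 (0.084 and 0.11), and the call of E18 against normal fed without E18 replicate 1 (0.055). Psme1 was 346% and 420% of Psme3 in DDC fed samples, 138% and 120% in E18 samples and 196% and 372% in normal fed samples. Psme4, which encodes the nuclear activator PA200, had 49.1 and 40.7 TPM in DDC fed samples, 37.7 and 36.8 TPM in E18 samples and 38.5 and 23.1 TPM in normal fed samples, and passed in no comparison.

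Within the 19S cap, the 6 ATPases gave no call, with log2 fold changes from -0.05 to 0.45 in DDC fed and from 0.06 to 0.32 in E18 against normal fed hepatocytes. The largest difference in DDC fed against normal fed was that of Psmc4, with 131 and 134 TPM in DDC fed samples, 95.1 and 107 TPM in E18 samples and 97.0 and 96.8 TPM in normal fed samples (0.45 ± 0.19, adjusted p = 0.10, limma). Psmc3 had the largest in E18 against normal fed, with 183 and 187 TPM in DDC fed samples, 171 and 188 TPM in E18 samples and 144 and 143 TPM in normal fed samples (0.32 ± 0.19, adjusted p = 0.17). Psmc6 was the one ATPase with a log2 fold change under 0 in DDC fed against normal fed (-0.05 ± 0.26). With median-ratio scaling all 6 ATPases were called lower in E18 than in normal fed hepatocytes, where 31.6% of all genes tested were lower. With the exon-length correction Psmc3 and Psmc5 were called higher in E18, where 63.9% of all genes tested were higher. With only the 2 groups compared Psmc4 was called higher in DDC fed than in E18, where 23% of all genes tested were higher.

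Of the 14 Psmd genes, 4 were higher in DDC fed than in normal fed hepatocytes, namely Psmd1, Psmd5, Psmd8 and Psmd10, and 4 were higher in E18, namely Psmd1, Psmd5, Psmd9 and Psmd10. Both counts are 28.6% of the Psmd genes, below the 34.2% and 63.0% of all genes tested that were higher in these comparisons. In 13 of the 14 both DDC fed samples lay above both normal fed samples, where 62.4% of all genes tested did, with Psmd6, a lid subunit, as the exception. Psmd6 had 98.4 and 105 TPM in DDC fed samples, 107 and 113 TPM in E18 samples and 109 and 130 TPM in normal fed samples (-0.23 ± 0.19 in DDC fed against normal fed, adjusted p = 0.39).

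Psmd8, a lid subunit whose arrival completes the lid in yeast, gave the largest difference in the family. It had 399 and 434 TPM in DDC fed samples, 130 and 136 TPM in E18 samples and 178 and 196 TPM in normal fed samples. The groups did not overlap, and the DDC fed samples had more than any other member in any DDC fed sample. It was higher in DDC fed than in normal fed hepatocytes by 1.15 ± 0.20 (adjusted p = 0.0048) and higher than in E18 by 1.64 ± 0.20 (adjusted p = 0.00042, limma). The E18 samples were below normal fed samples by 0.49 on the log2 scale, which missed the threshold (adjusted p = 0.058). The difference from E18 passed under each of 19 alternatives, between 1.48 and 2.15. The difference from normal fed was 0.47 with median-ratio scaling (adjusted p = 0.19), and was lost without DDC fed replicate 0 (1.21, adjusted p = 0.052) or 1 (1.09, adjusted p = 0.072).

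Against the core, Psmd8 stood at 201% and 197% of the median standard ring gene in DDC fed samples, at 73.0% and 69.0% in E18 samples and at 99.8% and 89.0% in normal fed samples. Psmd7, another lid subunit, had 125 and 122 TPM in DDC fed samples, 115 and 125 TPM in E18 samples and 87.4 and 92.7 TPM in normal fed samples. Psmd8 was thus 320% and 356% of Psmd7 in DDC fed samples, 113% and 109% in E18 samples and 204% and 212% in normal fed samples. Both scales put the DDC fed samples highest and the E18 samples lowest, without overlap of the groups. The stretch just before its annotated start in RefSeq (GRCm38.p6, chr7:29180702-29180923, minus strand, from 250 to 29 bases before the start) is shown because this gene moved apart from the rest of the lid. It held none of the 3 motifs searched below, which says only that these letters are not in this window.
Psmd8: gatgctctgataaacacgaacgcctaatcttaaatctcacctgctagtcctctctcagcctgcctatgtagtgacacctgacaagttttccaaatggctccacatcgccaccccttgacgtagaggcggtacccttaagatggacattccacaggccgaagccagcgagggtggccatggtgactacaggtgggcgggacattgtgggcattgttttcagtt

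Psmd1, the large scaffold subunit of the base, had 101 and 97.8 TPM in DDC fed samples, 88.3 and 92.1 TPM in E18 samples and 67.2 and 51.3 TPM in normal fed samples. Both DDC fed and both E18 samples lay above both normal fed samples. It was higher in DDC fed by 0.75 ± 0.21 (adjusted p = 0.029) and in E18 by 0.61 ± 0.21 (adjusted p = 0.031, limma), although the E18 difference turned to -0.57 (adjusted p = 0.015) with median-ratio scaling. Its calls in both comparisons were lost when either sample of the third group was left out, with adjusted p = 0.069 without E18 replicate 0 or 1 for DDC fed, and 0.085 and 0.087 without DDC fed replicate 0 and 1 for E18. The E18 call was also lost without E18 replicate 0 or 1 (adjusted p = 0.092 and 0.12). Its companion scaffold Psmd2 had 140 and 127 TPM in DDC fed samples, 130 and 139 TPM in E18 samples and 106 and 63.7 TPM in normal fed samples, and just missed the threshold in E18 (0.70 ± 0.27, adjusted p = 0.051).

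Psmd5, Psmd9 and Psmd10 encode assembly chaperones of the 19S base that leave before the cap is complete. Psmd10, also called gankyrin, had 26.3 and 31.9 TPM in DDC fed samples, 23.6 and 28.2 TPM in E18 samples and 11.2 and 16.5 TPM in normal fed samples. Both other groups lay above the normal fed one, by 1.04 ± 0.25 in DDC fed (adjusted p = 0.018) and by 0.88 ± 0.25 in E18 (adjusted p = 0.015, limma), though the E18 difference was -0.26 with median-ratio scaling and -0.25 with quantile normalization. The DDC fed call was lost without E18 replicate 0 or 1 (adjusted p = 0.064 and 0.065) and the E18 call likewise (0.063 and 0.12). Psmd5 had 40.4 and 38.9 TPM in DDC fed samples, 30.3 and 36.7 TPM in E18 samples and 23.1 and 21.7 TPM in normal fed samples. It was higher by 0.80 ± 0.19 in DDC fed (adjusted p = 0.018) and by 0.55 ± 0.19 in E18 (adjusted p = 0.033, limma), the E18 difference turning to -0.60 with the median ratio and -0.40 with quantile normalization. The E18 call was lost without DDC fed replicate 0 or 1 (adjusted p = 0.094 and 0.095) and without E18 replicate 1 (0.13). Psmd5 overlaps Cutal on the opposite strand by 573 bases, and the counting is not stated to use strand.

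Psmd9 followed another order and was highest in E18 samples. It had 36.9 and 39.1 TPM in DDC fed samples, 56.3 and 59.9 TPM in E18 samples and 34.6 and 36.5 TPM in normal fed samples. It was lower in DDC fed than in E18 by -0.60 ± 0.18 (adjusted p = 0.022) and higher in E18 than in normal fed by 0.69 ± 0.18 (adjusted p = 0.010, limma), although that difference was -0.48 with median-ratio scaling. The difference between DDC fed and E18 was lost without DDC fed replicate 0 or 1 (adjusted p = 0.17 and 0.12) and without E18 replicate 0 or 1 (0.057 and 0.085). In the GENCODE M21 annotation the gene (chr5:123169413-123250131) overlaps Hpd, an abundant gene of tyrosine breakdown on the opposite strand, over 10921 bases. The RefSeq start used for the Psmd9 promoter window below lies inside this span, away from its first base. Hpd had 886 and 1169 TPM in DDC fed samples, 440 and 319 TPM in E18 samples and 2298 and 1994 TPM in normal fed samples, an order unlike that of Psmd9. Its part in the Psmd9 level was not tested.

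**Figure D5:**
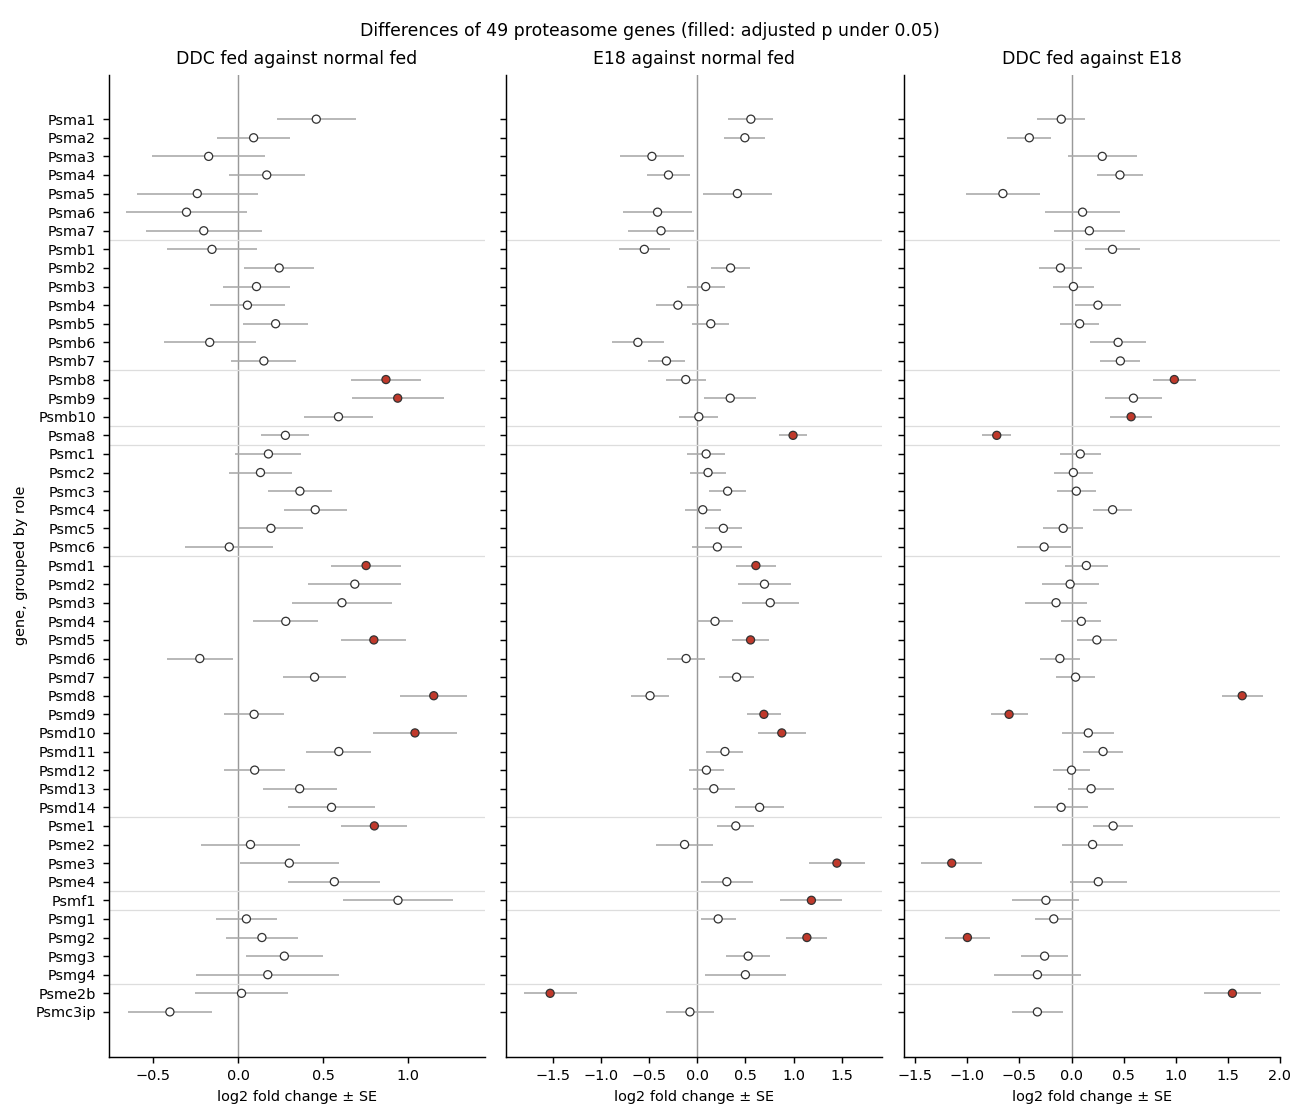
Log2 fold change (point) with its SE (bar) for the 49 tested genes in DDC fed against normal fed, E18 against normal fed and DDC fed against E18, filled where adjusted p was under 0.05 by limma. Filled points lie among the inducible, Psmd, activator, PI31 and assembly genes, Psma8 and the copy Psme2b, with none in the standard rings or the ATPases.

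Psmf1 encodes PI31, first described as an inhibitor of the core in vitro. It had 33.1 and 32.7 TPM in DDC fed samples, 36.4 and 42.2 TPM in E18 samples and 23.7 and 11.7 TPM in normal fed samples. The normal fed samples were the lowest and the most spread, with a difference of 1.19 ± 0.32 in E18 (adjusted p = 0.013, limma) and of 0.94 ± 0.32 in DDC fed that missed the threshold (adjusted p = 0.059). The E18 difference was 0.04 with median-ratio scaling and was lost without E18 replicate 0 or 1 (adjusted p = 0.083 and 0.12).

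The Psmg genes encode chaperones that build the alpha ring. Psmg2 had 31.0 and 29.7 TPM in DDC fed samples, 56.6 and 67.2 TPM in E18 samples and 31.39 and 24.02 TPM in normal fed samples. Both E18 samples lay above the other 4, and the adult groups overlapped. It was lower in DDC fed than in E18 by -1.0 ± 0.21 (adjusted p = 0.0058) and higher in E18 than in normal fed by 1.139 ± 0.213 (adjusted p = 0.0024, limma), except with median-ratio scaling, where the E18 difference from normal fed was -0.03. The call against E18 was lost without DDC fed replicate 1 (adjusted p = 0.054) or E18 replicate 1 (0.060). Psmg1, its partner in a dimer, had 36.9 and 41.5 TPM in DDC fed samples, 44.3 and 44.1 TPM in E18 samples and 37.1 and 38.6 TPM in normal fed samples, and passed in no comparison. Psmg3 had 29.4 and 31.8 TPM in DDC fed samples, 33.0 and 41.0 TPM in E18 samples and 21.6 and 29.3 TPM in normal fed samples. Psmg4 had 28.1 and 41.1 TPM in DDC fed samples, 39.4 and 46.7 TPM in E18 samples and 18.99 and 47.28 TPM in normal fed samples, the widest normal fed gap in the family on the log2 scale (1.27). The last pair, which also act as a dimer, passed in no comparison either.

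A pair of members outside the usual complex were lowest or highest in the E18 samples. Psma8, an alpha subunit of the testis proteasome, had 1.13 and 1.30 TPM in DDC fed samples, 2.57 and 2.72 TPM in E18 samples and 0.686 and 0.983 TPM in normal fed samples. These are levels near the filter, and fold changes on the log2(TPM + 1) scale understate the change of so low a gene. It was lower in DDC fed than in E18 by -0.72 ± 0.14 (adjusted p = 0.0040) and higher in E18 than in normal fed by 0.995 ± 0.141 (adjusted p = 0.00064, limma), but with quantile normalization these turned to 0.085 and -0.71. Psme2b had 16.3 and 18.8 TPM in DDC fed samples, 6.02 and 4.71 TPM in E18 samples and 13.46 and 22.02 TPM in normal fed samples. Both E18 samples were the lowest, by -1.53 ± 0.28 against normal fed (adjusted p = 0.0021), and Psme2b was higher in DDC fed than in E18 by 1.55 ± 0.28 (adjusted p = 0.0026, limma). The difference from E18 missed the threshold without E18 replicate 1 (adjusted p = 0.054), and whether reads were shared with Psme2 was not tested. Psmc3ip had 11.1 and 13.9 TPM in DDC fed samples, 15.7 and 16.0 TPM in E18 samples and 13.7 and 20.4 TPM in normal fed samples, with no call.

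Promoters were searched on both strands for the motifs of 3 regulators with known links to proteasome or immune genes. The window ran from 250 bases before to 50 bases after each RefSeq start (GRCm38.p6), and 42 of 50 members matched, with 45 windows. The core of the antioxidant response element, TGACNNNGC, the site of the factors Nfe2l1 and Nfe2l2, was in 13.3% of member windows, against 12.4% of all 32851 windows. The core of the interferon-stimulated response element, GAAA, any 2 bases and GAAA again, was in 11.1% of member windows (Psmb3, Psmd4, Psmd9, Psme1 and Psmg4), against 3.44% of all. The NF-Y box, CCAAT, was in 33.3%, against 37.4%. The windows of Psmb9 and its neighbour Tap1, a peptide transporter gene read the other way, share 275 of 300 bases. The annotated genes also overlap by 212 bases, and the counting is not stated to use strand. Tap1 had 10.5 and 9.32 TPM in DDC fed samples, 12.2 and 14.7 TPM in E18 samples and 5.74 and 2.91 TPM in normal fed samples. The part of Tap1 reads in the Psmb9 level was not tested. Short stretches around a match are shown as examples for 3 called members, with the match in capitals: an inverted NF-Y box in Psmb9 (chr17:34187321-34187350, minus strand) and interferon elements in Psme1 (chr14:55578493-55578522, plus strand, inverted) and Psmd9 (chr5:123228021-123228050, plus strand). NF-Y boxes in Psmd10 and Psme3 and an antioxidant element in Psmd9 are not shown. A match is a description of letters, and no binding was measured.
Psmb9: gcgcagccgctgATTGGaaagccgagcccc
Psme1: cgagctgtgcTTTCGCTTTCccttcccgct
Psmd9: gggacagaatGAAAAAGAAAggaatgaaca

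Genes that work with the proteasome under other symbols were examined as a list of 44, of which 43 were found and tested (Paaf1 was not analysed here). In DDC fed against normal fed hepatocytes 17 of 43 were higher and 0 lower, a share of 39.5% higher where the whole table had 34.2%. In E18 against normal fed 20 were higher and 4 lower (46.5% and 9.30%, against 63.0% and 12.7%), and in DDC fed against E18 9 were higher and 10 lower (20.9% and 23.3%, against 17.7% and 47.0%). The median log2 fold changes of the list were 0.70, 0.91 and -0.02 in the 3 comparisons.

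Ubd, which encodes the ubiquitin-like modifier FAT10 that delivers proteins to the proteasome without ubiquitin, had by far the highest fold change of this list. It had 510 and 631 TPM in DDC fed samples, was listed at 0 in both E18 samples and had 1.138 and 1.805 TPM in normal fed samples, so that it was higher in DDC fed than in normal fed hepatocytes by 7.86 ± 0.23 (adjusted p = 7.0e-06, limma). Sqstm1, the adaptor that binds ubiquitin in aggregates, had 1004 and 938 TPM in DDC fed samples, 180 and 150 TPM in E18 samples and 254 and 177 TPM in normal fed samples. It was higher in DDC fed by 2.19 ± 0.26 against normal fed (adjusted p = 0.00098) and by 2.55 ± 0.26 against E18 (adjusted p = 0.00018, limma).

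The factors that drive proteasome genes differed from each other. Nfe2l1, which raises proteasome gene transcription when the proteasome is impaired, had 96.4 and 83.0 TPM in DDC fed samples, 51.6 and 46.8 TPM in E18 samples and 82.3 and 38.9 TPM in normal fed samples. The normal fed samples spanned most of the range, and no comparison passed (0.65 ± 0.35 in DDC fed against normal fed, adjusted p = 0.18). Nfe2l2, the oxidative stress factor, had 151 and 152 TPM in DDC fed samples, 94.0 and 91.6 TPM in E18 samples and 39.3 and 35.2 TPM in normal fed samples. It was higher in DDC fed by 2.0 ± 0.18 against normal fed (adjusted p = 0.00038) and by 0.70 ± 0.18 against E18 (adjusted p = 0.013, limma). The call against E18 was lost without DDC fed replicate 0 or 1 (adjusted p = 0.10 and 0.11) or E18 replicate 1 (0.055). Pomp, the chaperone that brings the half-cores together, had 302 and 337 TPM in DDC fed samples, 205 and 231 TPM in E18 samples and 278 and 395 TPM in normal fed samples, with no call. Uchl5, a deubiquitinase of the cap, had 34.0 and 30.8 TPM in DDC fed samples, 64.1 and 70.8 TPM in E18 samples and 23.7 and 18.8 TPM in normal fed samples, and was lower in DDC fed than in E18 by -1.04 ± 0.20 (adjusted p = 0.0039) and higher in E18 than in normal fed by 1.63 ± 0.20 (adjusted p = 0.00033). Uba6, an activating enzyme for ubiquitin and FAT10, had 3.71 and 4.13 TPM in DDC fed samples, 9.51 and 8.55 TPM in E18 samples and 2.93 and 1.87 TPM in normal fed samples, higher in E18 than in normal fed by 1.58 ± 0.22 (adjusted p = 0.00054, limma), a difference that turned to -0.15 with quantile normalization.

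Genes of the peptide presentation that the immunoproteasome serves were higher in DDC fed than in normal fed hepatocytes in 5 of 8 cases (against 34.2% of all genes tested), and in DDC fed than in E18 in 5 of 8 (against 17.7%), with 0 lower in both. In E18 against normal fed 2 of the 8 were higher and 3 lower (against 63.0% and 12.7% of all genes tested). H2-K1, a class I heavy chain, had 1976 and 1615 TPM in DDC fed samples, 180 and 152 TPM in E18 samples and 677 and 351 TPM in normal fed samples. It was higher in DDC fed by 1.87 ± 0.35 against normal fed (adjusted p = 0.0068) and by 3.43 ± 0.35 against E18 (adjusted p = 0.00019, limma), the call against normal fed being lost without DDC fed replicate 0 (adjusted p = 0.060). Nlrc5, a transactivator of class I genes, had 6.86 and 6.41 TPM in DDC fed samples, 0.508 and 0.766 TPM in E18 samples and 2.16 and 1.22 TPM in normal fed samples, higher in DDC fed by 1.53 ± 0.21 against normal fed (adjusted p = 0.0018) and by 2.23 ± 0.21 against E18 (adjusted p = 0.00012). The interferon regulators had another order: Irf1 had 47.3 and 58.5 TPM in DDC fed samples, 139 and 96.4 TPM in E18 samples and 12.4 and 14.4 TPM in normal fed samples. Irf8, which is also a leukocyte gene, had 5.18 and 6.13 TPM in DDC fed samples, 32.4 and 43.1 TPM in E18 samples and 2.11 and 1.13 TPM in normal fed samples. Irf1 and Irf8 were higher in DDC fed than in normal fed hepatocytes by 1.90 ± 0.25 and 1.37 ± 0.27 (adjusted p = 0.0014 and 0.0078, limma). Both were lower in DDC fed than in E18 hepatocytes, by -1.12 ± 0.25 and -2.53 ± 0.27 (adjusted p = 0.0065 and 0.00022, limma). Psmb8 and Psmb10 had the opposite sign in that comparison. The part of these regulators in the inducible gene differences was not tested. The Irf1 call against E18 was lost without DDC fed replicate 0 (adjusted p = 0.065), without E18 replicate 0 (0.055) and with median-ratio scaling (0.10), and the Irf8 call against normal fed without DDC fed replicate 1 (0.071) and with quantile normalization (0.13).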

How the data were processed

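PolyA RNA libraries of 6 hepatocyte samples, made with a stranded kit per the labels' protocols, were deposited as a table of TPM by the authors. The submitters' processing notes name Trimmomatic, STAR 2.4.2a, HTSeq and Cuffdiff 2.2.1 with GRCm38, without roles, and the strand setting of counting is not given in the sources used here. TPM sums to 1000000 per sample and keeps no depth, so no count test was run and depth is unknown. IDs were matched to GENCODE M21 symbols, and promoters to RefSeq. limma 3.58.1 in R 4.3.3 was fitted to log2(TPM + 1) with 1 mean per group over all 6 samples, on genes that reached 1 TPM in 2 or more samples, with a variance trend, two-sided, with Benjamini-Hochberg adjustment at 0.05. The procedure was tested on simulated data in which few genes changed and the whole table did not shift. That test therefore does not bear on how the calls depend on scaling. Columns were mapped to groups by name. Named genes were the inducible, catalytic, activator and assembly members, members with the smallest p or extreme fold changes in a role, and the related genes with the smallest p. Members and lists were chosen with earlier results of these data known. Alternatives covered scaling, pseudocount, filter, exon length, the replicate block, the variance prior, the threshold and samples left out. One list of marker genes is not reported here.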

Additional observations from a re-analysis of the deposited data

How the results depend on the processing

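Scaling, the exon-length correction and single samples each moved the counts, and read depth, which TPM does not keep, set a limit that could not be measured. In DDC fed against normal fed hepatocytes the 7 higher members became 0 with median-ratio scaling, 1 with quantile normalization, 4 with TPM rescaled to protein-coding genes without the 50 highest, 4 with only the 2 groups compared and 1 at an adjusted p of 0.01, and the 0 lower became 2 with the median ratio and 2 with quantile normalization. In E18 against normal fed the 8 higher became 0, 2 and 4 with those 3 scalings, 18 with the exon-length correction, 13 with a variance prior without trend and 3 at 0.01. The 1 lower became 35, 8 and 5 with the scalings, 2 with no filter on low values and 2 without the trend. In DDC fed against E18 the 4 higher became 14 with the median ratio, 7 with quantile normalization and 12 with only the 2 groups, and the 4 lower became 2 with the median ratio and 2 at 0.01. Of all genes tested, 20.3%, 14.6% and 29.0% were higher and 11.9%, 14.4% and 4.06% lower in DDC fed against normal fed with the median ratio, quantile normalization and rescaled TPM. In E18 against normal fed 38.1%, 32.0% and 57.4% were higher and 31.6%, 36.6% and 16.0% lower, and in DDC fed against E18 27.4%, 32.1% and 19.2% were higher and 34.6%, 31.5% and 45.3% lower. With the exon-length correction 63.9% of all genes were higher in E18 against normal fed, and without the trend 63.2% were higher and 12.8% lower. With no filter on low values 7.27% of genes were lower there. With only the 2 groups compared 26.5% were higher in DDC fed against normal fed and 23% in DDC fed against E18. At an adjusted p of 0.01, 19.5% were higher in DDC fed against normal fed and 54.2% in E18 against normal fed, and 36.7% were lower in DDC fed against E18. The cause was not tested beyond the shift of the all-gene median.

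With 1 sample left out, the members ranged from 0 to 16 higher and from 0 to 7 lower in DDC fed against normal fed, from 3 to 19 higher and from 1 to 10 lower in E18 against normal fed, and from 2 to 12 higher and from 1 to 6 lower in DDC fed against E18. The lone sample left in a group was assumed to vary like the other groups. For the related genes these ranges were 8 to 33 higher and 0 to 2 lower, 12 to 29 higher and 2 to 9 lower, and 6 to 14 higher and 3 to 16 lower.

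The 17 related genes higher in DDC fed against normal fed became 10 with the median ratio, 10 with quantile normalization, 11 with only the 2 groups and 11 at 0.01, and the 0 lower became 2 and 1 with the first 2 of these. In E18 against normal fed the 20 higher became 4 and 13 with the median ratio and quantile normalization, and the 4 lower became 17, 9 and 8 with the 3 scalings and 7 with the exon-length correction. In DDC fed against E18 the 9 higher became 19 with the median ratio and 14 with only the 2 groups, and the 10 lower became 5, 16 and 6 with the median ratio, only the 2 groups and 0.01.

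Rescaled TPM turned the members' median in E18 against normal fed to -0.04. The turns given next are those of genes named in the report that had a call before or after, and unnamed members turned too. With the median ratio, E18 against normal fed gave -0.84 for Psmb2, -1.04 for Psmb5, -0.75 for Psmb9, -1.14 for Psmb10, -0.88 for Psmc3, -1.13 for Psmc4, -0.98 for Psmc6, -0.57 for Psmd1, -0.60 for Psmd5, -0.48 for Psmd9, -0.26 for Psmd10, -0.79 for Psme1, -0.85 for Psme4, -0.95 for Psmg1 and -0.03 for Psmg2, and DDC fed against normal fed gave -0.53 for Psmg2. With quantile normalization, E18 against normal fed gave -1.06 for Psmb9, -0.91 for Psmb10, -0.71 for Psma8, -0.40 for Psmd5, -0.25 for Psmd10, -0.57 for Psme4, -0.54 for Psmg1 and -0.15 for Uba6, while Psma8 gave -0.63 in DDC fed against normal fed and 0.085 in DDC fed against E18.

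Same-numbered samples shared deviations weakly (correlations of 0.23, 0.14 and 0.06), and the labels give no shared animal or day, so the numbers were not taken as pairs. With the replicate block the members counted 8 higher and 0 lower, 12 higher and 1 lower, and 3 higher and 4 lower in the 3 comparisons, and the Psmb10 call in DDC fed against E18 was lost (adjusted p = 0.054).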
